A study of Mus musculus with 18 samples.

Results

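The genes described here encode the subunits of the mitochondrial respiratory chain and of the ATP synthase. They were taken by symbol from the genes of the array: Nduf genes with the letters A, B, C, S or V and a number (complex I), Sdha to Sdhd (complex II), Uqcr genes (complex III), Cox4 to Cox8 genes with a letter (complex IV) and Atp5 genes (complex V). The rule used no measured value. It found 78 genes on 87 probesets, of 22180 genes measured, with 33 in complex I, 4 in complex II, 8 in complex III, 15 in complex IV and 18 in complex V. Another 9 protein-coding genes that carry such symbols, Cox6c and Uqcr10 among them, had no probeset of their own in the annotation used and were not tested. Some symbols are wider than the complexes: 2 of the 78 are pseudogenes (Atp5c1-ps and Uqcrh-ps1), Ndufa4 is now placed in complex IV, and Cox7a2l is a factor that joins complexes into supercomplexes.

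RNA came from the gastrocnemius, a calf muscle, of 9 wild-type mice. Per the labels they were female and their background was mixed, C57Bl6/J-SV129 (the study's animal section names male C57BL/6J mice, and this was not resolved). In each mouse 1 leg was injected intramuscularly with 30 µg of tunicamycin in 30 µL and the other leg with saline, and muscles were taken 24 h later, which gave 9 tunicamycin and 9 saline arrays. Tunicamycin blocks N-linked glycosylation and thereby causes endoplasmic reticulum (ER) stress, and the question put to the muscle was how its transcriptome responds to such stress. Both treatments were given to each mouse, and no animal without tunicamycin was among the samples, so only differences between the legs were measured.

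All values are log2 array signals, and all changes are log2 tunicamycin minus saline within a mouse. A gene was called changed at a limma adjusted p under 0.05 with the mouse as a block, and errors of gene changes are limma's moderated standard error (SE). Array medians ran from 4.99 to 5.07. The ER stress genes Hspa5, an ER chaperone, and Ddit3, a stress-induced transcription factor, were higher in the tunicamycin leg of 9 of 9 mice (1.36 ± 0.12 and 1.15 ± 0.099, limma adjusted p = 0.000119 for each). The 8 skeletal muscle markers averaged 11.7 to 11.9 in tunicamycin arrays and 11.8 to 11.9 in saline arrays, which goes with the labelled tissue. A pair of mice stood apart. The tunicamycin leg of mouse 1 carried brown adipocyte transcripts (Ucp1 at 8.79, Cidea at 7.89 and Elovl3 at 8.06, against at most 5.15, 5.28 and 4.12 in the other 17 arrays), and both legs of mouse 9 had a low Xist signal (4.79 to 4.90, against 9.22 to 9.52 in mice 1 to 8), which goes against its label as female. Main counts are therefore also given without mice 1 and 9.

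The respiratory chain passes electrons from NADH (through complex I) and succinate (through complex II) to coenzyme Q, complex III, cytochrome c and complex IV, which reduces oxygen. Complexes I, III and IV pump protons across the inner mitochondrial membrane, and complex V, the ATP synthase, uses the gradient to make ATP. Nearly all subunits are encoded in the nucleus and a few in mitochondrial DNA, and striated muscle, which is rich in mitochondria, uses its own isoforms of several complex IV subunits. PGC-1α (Ppargc1a), the nuclear respiratory factors NRF1 and GABP, and the ERR receptors are known activators of the nuclear genes.

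Promoter sequences were taken from RefSeq, assembly GRCm38.p6, matched by symbol, as windows of 250 bases before to 50 bases after a gene's start, and 64 of the 78 genes had one. They are shown for Cox6a1 and for some of the genes that fell, because these moved in opposite directions. Some of them share a motif and others hold none. No window was found for Cox6a2 or Sdhc. Capitals mark a match on either strand to NRF1 (GCGCATGCG), the ETS motif bound by GABP (CCGGAAG) or ERR (AAGGTCA). Cox6a1, which rose, lies at chr5:115348909-115349208 on the minus strand and holds NRF1 and ETS matches. Among genes that fell, the windows of Sdhd (chr9:50603800-50604099, minus strand; ETS and ERR matches) and Atp5g3 (chr2:73911277-73911576, minus strand; an ERR match) are followed by those of Ndufa5 (chr6:24527477-24527776, minus strand, 1 of 2 windows in the table) and Ndufb3 (chr1:58586147-58586446, plus strand), which held none of these letters.
Cox6a1: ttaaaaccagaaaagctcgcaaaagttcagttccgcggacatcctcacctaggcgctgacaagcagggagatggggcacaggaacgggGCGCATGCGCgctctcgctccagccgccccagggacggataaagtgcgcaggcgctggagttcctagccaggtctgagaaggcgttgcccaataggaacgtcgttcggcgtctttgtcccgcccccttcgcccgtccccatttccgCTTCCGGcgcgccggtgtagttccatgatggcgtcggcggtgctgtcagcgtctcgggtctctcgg
Sdhd: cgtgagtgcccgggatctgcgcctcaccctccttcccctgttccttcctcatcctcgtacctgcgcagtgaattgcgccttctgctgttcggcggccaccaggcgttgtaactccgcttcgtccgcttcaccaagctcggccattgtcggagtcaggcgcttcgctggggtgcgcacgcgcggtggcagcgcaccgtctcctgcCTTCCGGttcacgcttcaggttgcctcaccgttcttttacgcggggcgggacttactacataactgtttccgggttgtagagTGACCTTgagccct
Atp5g3: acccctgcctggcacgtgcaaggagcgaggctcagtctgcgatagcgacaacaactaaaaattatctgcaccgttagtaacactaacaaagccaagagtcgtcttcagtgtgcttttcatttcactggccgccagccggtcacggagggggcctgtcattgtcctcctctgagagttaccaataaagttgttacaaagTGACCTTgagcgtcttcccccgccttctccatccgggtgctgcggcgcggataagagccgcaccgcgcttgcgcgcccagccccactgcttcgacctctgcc
Ndufa5: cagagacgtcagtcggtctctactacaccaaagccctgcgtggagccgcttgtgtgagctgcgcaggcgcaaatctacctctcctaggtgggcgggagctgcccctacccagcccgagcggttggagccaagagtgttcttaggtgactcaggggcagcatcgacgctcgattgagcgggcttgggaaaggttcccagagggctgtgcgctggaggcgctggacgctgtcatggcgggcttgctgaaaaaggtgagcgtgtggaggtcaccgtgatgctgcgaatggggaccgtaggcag
Ndufb3: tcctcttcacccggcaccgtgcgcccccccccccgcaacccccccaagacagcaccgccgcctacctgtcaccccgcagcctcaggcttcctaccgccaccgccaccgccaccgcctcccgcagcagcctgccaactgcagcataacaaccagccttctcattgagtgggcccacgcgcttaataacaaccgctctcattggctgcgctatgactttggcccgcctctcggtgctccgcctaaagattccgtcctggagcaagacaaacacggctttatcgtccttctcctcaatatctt

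Over the 64 windows, the NRF1 letters were found in 8 genes (12.5%, against 1.95% of 27025 genes with a window), among them Cox6a1, Atp5l and Ndufa8. ETS letters were found in 17 (26.6%, against 9.93%), ERR letters in 6 (9.38%, against 5.38%) and YY1 letters (AAGATGG) in 10 (15.6%, against 7.28%). No window of the 64 held the ATF4-CHOP letters TGATGNAA or the ATF6 letters TGACGTGG, motifs of the ER stress response, which stood in 4.51% and 0.714% of genes. Of the 15 genes that fell, 12 had a window, and of these 3 held ETS, 3 ERR, 2 YY1 and 1 NRF1 letters. These matches describe the sequence, and an NRF1 match stood in genes of either direction.

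Expression of the subunit genes was lower on average in the tunicamycin leg. The mean change was negative for 69 of 78 genes (88.5%), against 47.3% of all genes, and the median change was -0.13, against 0.01 over all genes. Past the threshold, 15 fell and 2 rose, Cox6a1 and the pseudogene Atp5c1-ps. These 17 are 21.8% of the 78, against 10.9% of all genes called in either direction, and the 15 falls are 19.2%, against 6.15% of all genes. Rises came to 4.72% of all genes. The shares over all genes take in dim genes, whereas 69 of the 78 subunit genes lay at or above the median of all gene means. With only genes at or above that median tested, 27 of the 69 subunit genes kept fell. Of all genes kept 1856 fell, against 1363 of all 22180 genes in the main fit. The share of falls among brighter genes was therefore above 6.15%, and the excess of the subunit genes is smaller against it. The falls were small on the arrays: the largest called fall was that of Ndufb3, to 0.824 times the saline level. Per the study, microarrays give fold changes reliably but make them too small.

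The 9 tunicamycin arrays lay wholly apart from the 9 saline arrays for 0 of 78 subunit genes, against 0.564% of all genes. Lower values in the tunicamycin leg of all 9 mice were seen for 4 of 78 genes (Ndufa5, Ndufb5, Atp5g3 and Atp5j), a share of 5.13% near the 3.69% of all genes. A further 24 genes (30.8%, against 7.13% of all genes) were lower in 8 mice and 26 (33.3%, against 9.26%) in 7 mice. An unadjusted p under 0.05 was reached by 55 of 78 genes, against 5689 of all 22180.

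How many genes passed depended on single mice. Counts of falls were 6, 3, 5, 4, 3 and 3 without mouse 2, 3, 4, 5, 6 or 7, and 25 without mouse 8. Of all 22180 genes, 881, 741, 761, 793, 847 and 821 fell in the same order, and 1310 without mouse 8. Without mouse 3, 6 or 7, the 3 falls among 78 subunit genes were a share close to that of all genes. Without mouse 1 or 9, 14 and 13 subunit genes fell, against 1474 and 1449 of all genes. The subunit share stayed higher than that of all genes without mouse 1, 2, 4, 5, 8 or 9. With each array centred on its median 24 fell and 2 rose, and falls made up 69% of the calls over all genes, against 56.6% in the values as deposited. Ndufa5 and Atp5g3 were called in each of 17 alternative analyses by gene, and Ndufb3 in 16 of 17. Fewer muscle cells in a sample and less of these transcripts per cell cannot be told apart in whole-muscle RNA.

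Without mice 1 and 9, 19 of the 78 genes fell (24.4%, against 7.42% of all genes) and 2 rose, Cox6a1 and the pseudogene Uqcrh-ps1 (against 7.05% of all genes), so that 26.9% were called, against 14.5% of all genes. A negative change was found for 70 of 78 genes (89.7%, against 50.8% of all genes), an unadjusted p under 0.05 for 53, and lower values in all 7 mice for 8 (10.3%, against 7.74% of all genes). Falls came to 9 in complex I (27.3%), 2 in complex II (50%), 2 in complex III (25%), 2 in complex IV (13.3%) and 4 in complex V (22.2%). Of the 17 calls with all mice 14 were kept, and those of Ndufa1 (adjusted p = 0.0583), Cox6a2 and Atp5c1-ps were lost.

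**Figure D1:**
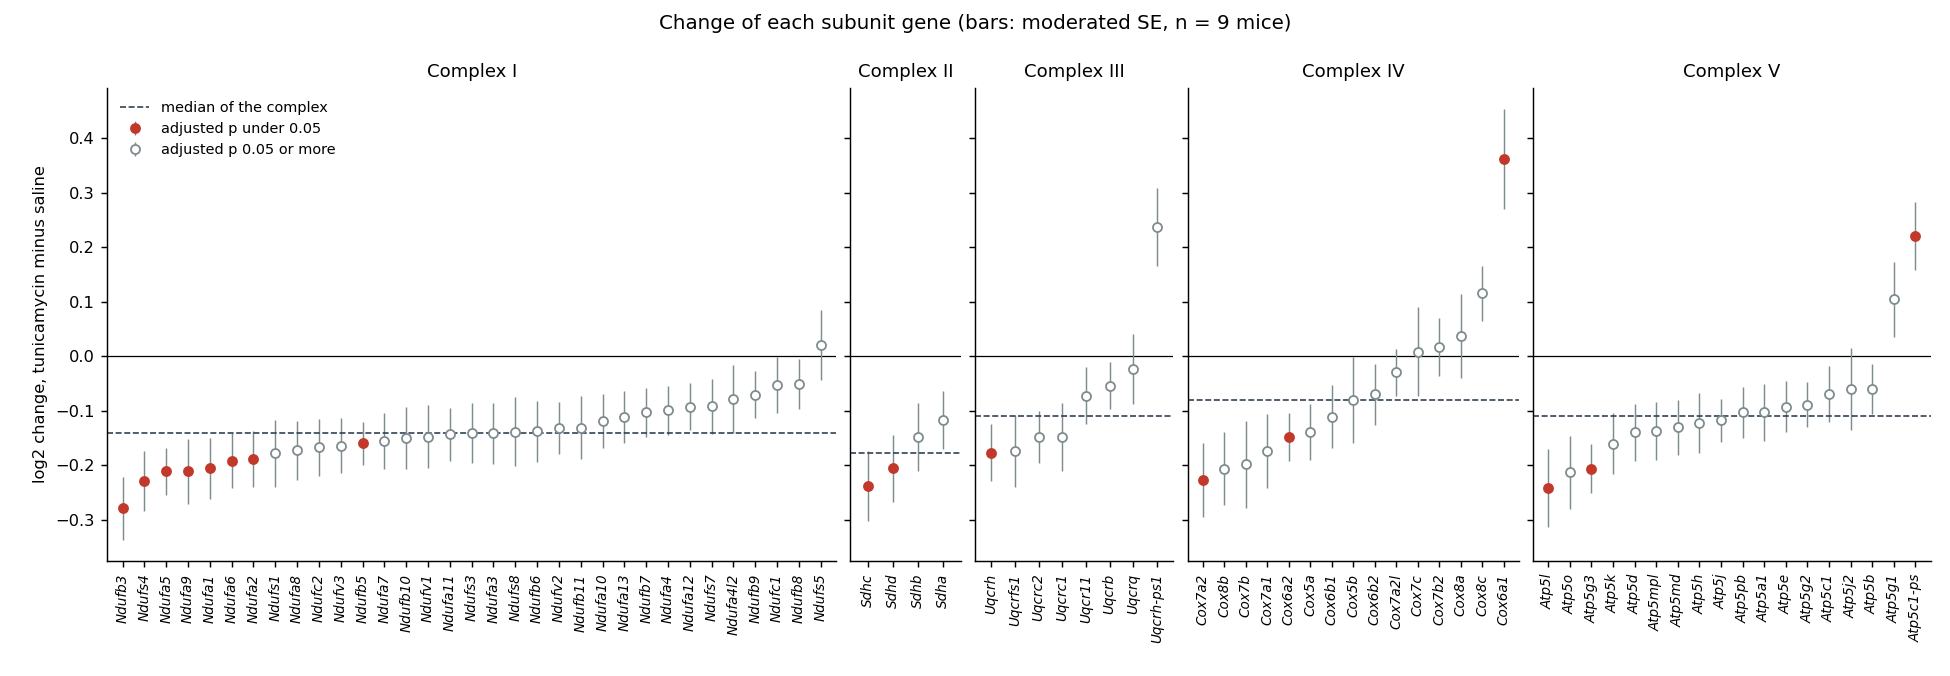
Change of each of the 78 subunit genes (log2, tunicamycin minus saline, points with the moderated SE over 9 mice), by complex and in order of change, with filled points at an adjusted p under 0.05 and a dashed line at the median of the complex. Medians of all 5 complexes lie below 0, from -0.18 in complex II to -0.08 in complex IV, and Cox6a1 stands highest at 0.36.

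In complex I, the entry point for electrons from NADH, 8 of 33 genes fell (24.2%, against 6.15% of all genes) and 0 rose. A negative change was found for 32, with a median of -0.14 (SD over mice of the mouse medians 0.11). The genes that fell encode accessory subunits, which surround the catalytic core. Of 8 accessory genes of the peripheral arm that extends into the matrix, 5 fell (median -0.19): Ndufa5, Ndufs4, Ndufa6, Ndufa2 and Ndufa9. Of 17 accessory genes of the membrane arm, 3 fell (median -0.14): Ndufb3, Ndufb5 and Ndufa1. The 6 measured core genes belong to the catalytic core, which holds the flavin and the iron-sulfur centres. These core genes had a similar median of -0.14 and 0 passed the threshold, with limma adjusted p values of 0.0824 (Ndufs1, -0.18 ± 0.062) and more. Whether core and accessory genes differ was not tested.

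Ndufa5 had the smallest p of the 78 genes. In tunicamycin legs its signal was 6.86 at the lowest, 7.08 at the median and 7.15 at the highest, against 7.11, 7.26 and 7.43 in saline legs. It was lower in the tunicamycin leg of 9 of 9 mice, and 7 of 9 tunicamycin arrays were below every saline array (-0.21 ± 0.043, limma adjusted p = 0.00951).

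Ndufb3, a small membrane arm subunit, spanned 6.96 to 7.53 in tunicamycin legs, with a median of 7.16, against 7.08 to 7.84 and a median of 7.43 in saline legs. The groups overlapped, with 3 tunicamycin arrays below every saline array, and 8 of 9 mice were lower after tunicamycin (-0.28 ± 0.057, limma adjusted p = 0.0103). Mouse 8 was the exception, with 7.23 in its tunicamycin leg and 7.08 in its saline leg.

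Ndufs4, an accessory subunit whose loss in mice gives a Leigh-like disease, spanned 8.69 to 9.02 in tunicamycin legs (median 8.86), against 8.93 to 9.23 in saline legs (median 9.15). It was lower in 7 of 9 mice, with 5 tunicamycin arrays below every saline array (-0.23 ± 0.055, limma adjusted p = 0.0208). The other 5 genes that fell changed by -0.16 (Ndufb5) to -0.21 (Ndufa9), with adjusted p values of 0.0227 to 0.0394. Ndufa4 changed by -0.10 ± 0.045 (adjusted p = 0.187), its paralogue Ndufa4l2 by -0.08 ± 0.063 (adjusted p = 0.481), and Ndufs5 by 0.02 ± 0.064 (adjusted p = 0.886). The Ndufs5 value comes from a dim signal of 4.82 in tunicamycin legs and 4.80 in saline legs. A brighter probeset shared by Ndufs5 and its pseudogene, left out of the tests, averaged 8.20 in tunicamycin legs and 8.39 in saline legs and was lower in 7 of 9 mice.

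Complex II oxidises succinate and is also an enzyme of the TCA cycle. Its 4 genes had the lowest median of the complexes (-0.18, SD over mice 0.17). The genes of both membrane anchors fell, 2 of the 4 genes (50%, against 6.15% of all genes). Sdhc spanned 8.93 to 9.21 in tunicamycin legs (median 9.11), against 9.12 to 9.57 in saline legs (median 9.37). It was lower in 8 of 9 mice, with mouse 4 the exception (-0.24 ± 0.064, limma adjusted p = 0.0327).

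Sdhd spanned 8.68 to 8.89 in tunicamycin legs (median 8.79), against 8.55 to 9.17 in saline legs (median 9.05), and was lower in 7 of 9 mice (-0.21 ± 0.061, limma adjusted p = 0.0480). The saline leg of mouse 8 held its lowest value of all. The catalytic subunits changed by -0.15 ± 0.062 (Sdhb, the iron-sulfur subunit, adjusted p = 0.151) and by -0.12 ± 0.053 (Sdha, the flavoprotein, adjusted p = 0.189), each lower in 7 of 9 mice.

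**Figure D2:**
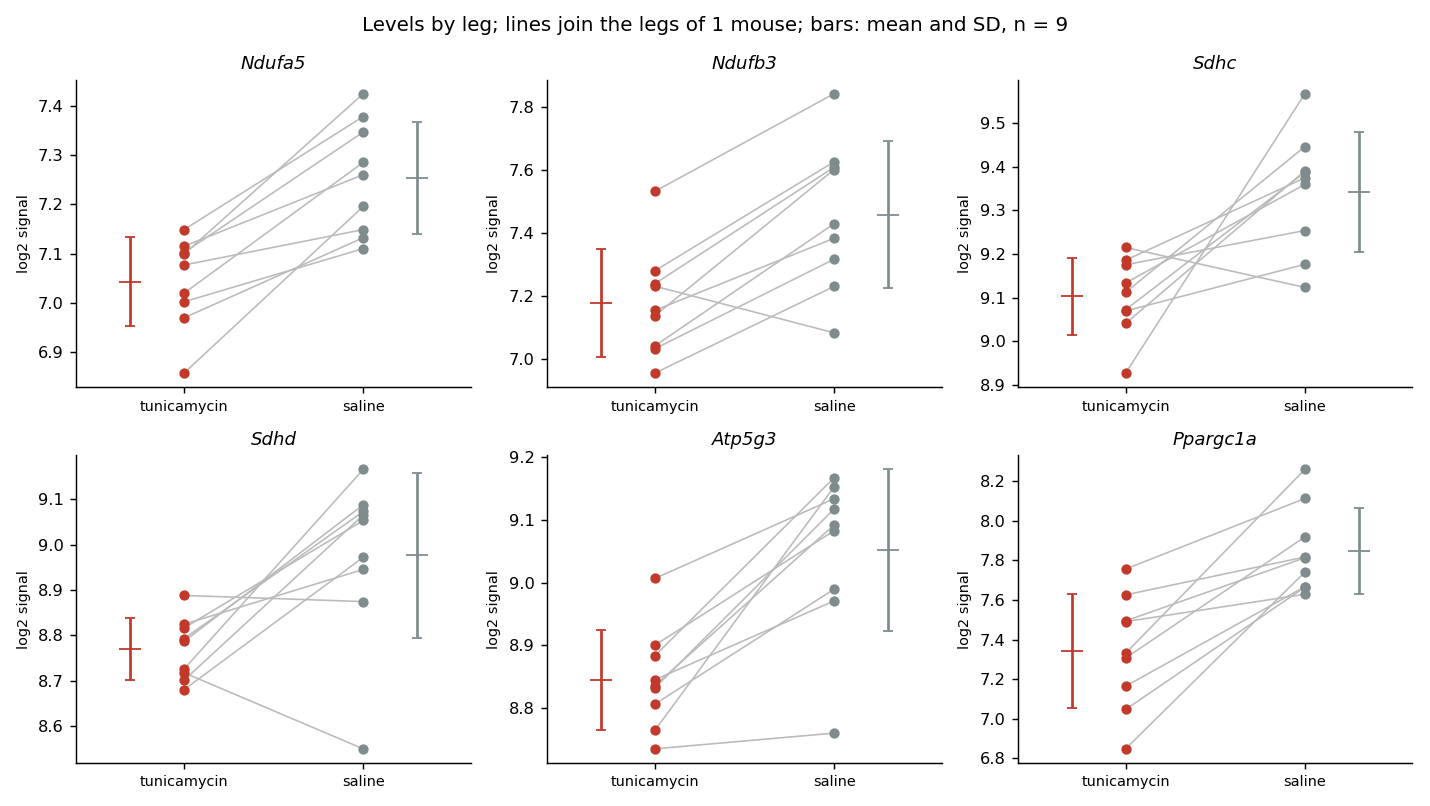
Log2 signal of Ndufa5, Ndufb3, Sdhc, Sdhd, Atp5g3 and Ppargc1a in the tunicamycin (left) and saline (right) leg of each mouse, with lines joining the legs of a mouse and bars for the mean and SD of 9 legs. Ndufa5, Atp5g3 and Ppargc1a were lower in the tunicamycin leg of 9 of 9 mice, and the saline value of mouse 8 is the lowest point of Sdhd at 8.55.

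Complex III, the cytochrome bc1 complex, had 1 of 8 genes past the threshold (12.5%, near the 10.9% of all genes called) and a median of -0.11 (SD over mice 0.12). Uqcrh, the hinge protein by which cytochrome c1 meets cytochrome c, spanned 7.89 to 8.12 in tunicamycin legs (median 8.06), against 7.97 to 8.31 in saline legs (median 8.23). It was lower in 8 of 9 mice (-0.18 ± 0.052, limma adjusted p = 0.0472). The core protein Uqcrc2 (-0.15 ± 0.047, adjusted p = 0.0630) and the Rieske iron-sulfur protein Uqcrfs1 (-0.17 ± 0.067, adjusted p = 0.118) did not pass. Uqcrh-ps1, a pseudogene of Uqcrh at a low signal of 3.03 ± 0.18 in tunicamycin legs and 2.79 ± 0.20 in saline legs (SD, n = 9 each), changed by 0.24 ± 0.072 (adjusted p = 0.0518).

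Complex IV, cytochrome c oxidase, was the most mixed: 2 of 15 genes fell, 1 rose and 10 had a negative change, with a median of -0.08 (SD over mice 0.14). The 3 calls are 20%, against 10.9% of all genes. Of the 5 genes with a positive change, Cox7b2 (2.54 in tunicamycin legs and 2.53 in saline legs), Cox8c (3.37 and 3.26) and Cox7c (4.54 and 4.53) had a low signal. The median takes in these dim genes. In mammals several complex IV subunits exist as an isoform of heart and skeletal muscle and an isoform of most other tissues. Of these, Cox6a2, Cox7a1 and Cox8b are the muscle forms and Cox6a1, Cox7a2 and Cox8a the other forms. The testis isoforms Cox6b2 (signal 4.88 in tunicamycin legs and 4.95 in saline legs), Cox7b2 and Cox8c changed by -0.07, 0.02 and 0.12. Their limma adjusted p values were 0.172 (Cox8c) to 0.887 (Cox7b2).

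Cox6a1, the isoform of most tissues, rose. In mice 1 to 9 its signal was 10.61, 9.93, 9.98, 9.99, 9.90, 10.03, 9.87, 9.89 and 9.61 in tunicamycin legs, against 9.62, 9.66, 9.85, 9.56, 9.48, 9.63, 9.41, 9.50 and 9.85 in saline legs. Tunicamycin legs were higher in 8 of 9 mice, and in those 8 mice the tunicamycin value was above every saline value, whereas mouse 9 went the other way. The change was 0.36 ± 0.092, or 1.28-fold (limma adjusted p = 0.0256). Leaving out mouse 1 gave 0.28 (adjusted p = 0.0293), leaving out mice 1 and 9 gave 0.36 (adjusted p = 0.00108), and the call was lost without mouse 4, 5, 6 or 7 (adjusted p of 0.0557 to 0.0617).

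Cox6a2, the muscle isoform, fell, with 11.43 to 11.69 in tunicamycin legs (median 11.56), against 11.57 to 11.89 in saline legs (median 11.69). It was lower in 8 of 9 mice (-0.15 ± 0.044, limma adjusted p = 0.0472). This call was kept in only 6 of 17 alternatives and was lost without mice 1 and 9 (adjusted p = 0.0738). Within mice, the change of Cox6a2 minus that of Cox6a1 was -0.51 ± 0.32 (SD, n = 9) and negative in 8 of 9 mice (exact two-sided sign-flip permutation test, p = 0.00781, adjusted over 3 pairs 0.0234). It was -0.51 without mice 1 and 9 (exact permutation, adjusted p = 0.0312).

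The Cox8 pair differed in the same direction. Cox8b spanned 10.09 to 10.61 in tunicamycin legs, against 10.32 to 10.78 in saline legs (-0.21 ± 0.067, limma adjusted p = 0.0659). Cox8a spanned 8.24 to 8.84, against 8.19 to 8.72 in saline legs (0.04 ± 0.077, limma adjusted p = 0.813). The difference of the changes was -0.24 ± 0.24 (SD, n = 9) and negative in 7 of 9 mice (exact permutation p = 0.0234, adjusted 0.0352), and it missed the threshold without mouse 3, 4, 6 or 7 (adjusted p of 0.0625 to 0.0703).

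The third pair moved together. Cox7a2 fell, with 8.34 to 8.60 in tunicamycin legs (median 8.40), against 8.41 to 8.81 in saline legs (median 8.73; -0.23 ± 0.068, limma adjusted p = 0.0493). Cox7a1 changed by -0.17 ± 0.068 (adjusted p = 0.120), with a median of 10.11 in tunicamycin legs and 10.31 in saline legs. The change of Cox7a1 minus that of Cox7a2 was 0.05 ± 0.060 (SD, n = 9) and positive in 7 of 9 mice (exact permutation p = 0.0391, adjusted 0.0391), opposite in sign to the other pairs. It was 0.01 after a renewed quantile normalization (exact permutation, adjusted p = 0.5) and missed the threshold without mouse 2, 3, 4, 6, 7, 8 or 9 (adjusted p of 0.0625 to 0.0781).

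**Figure D3:**
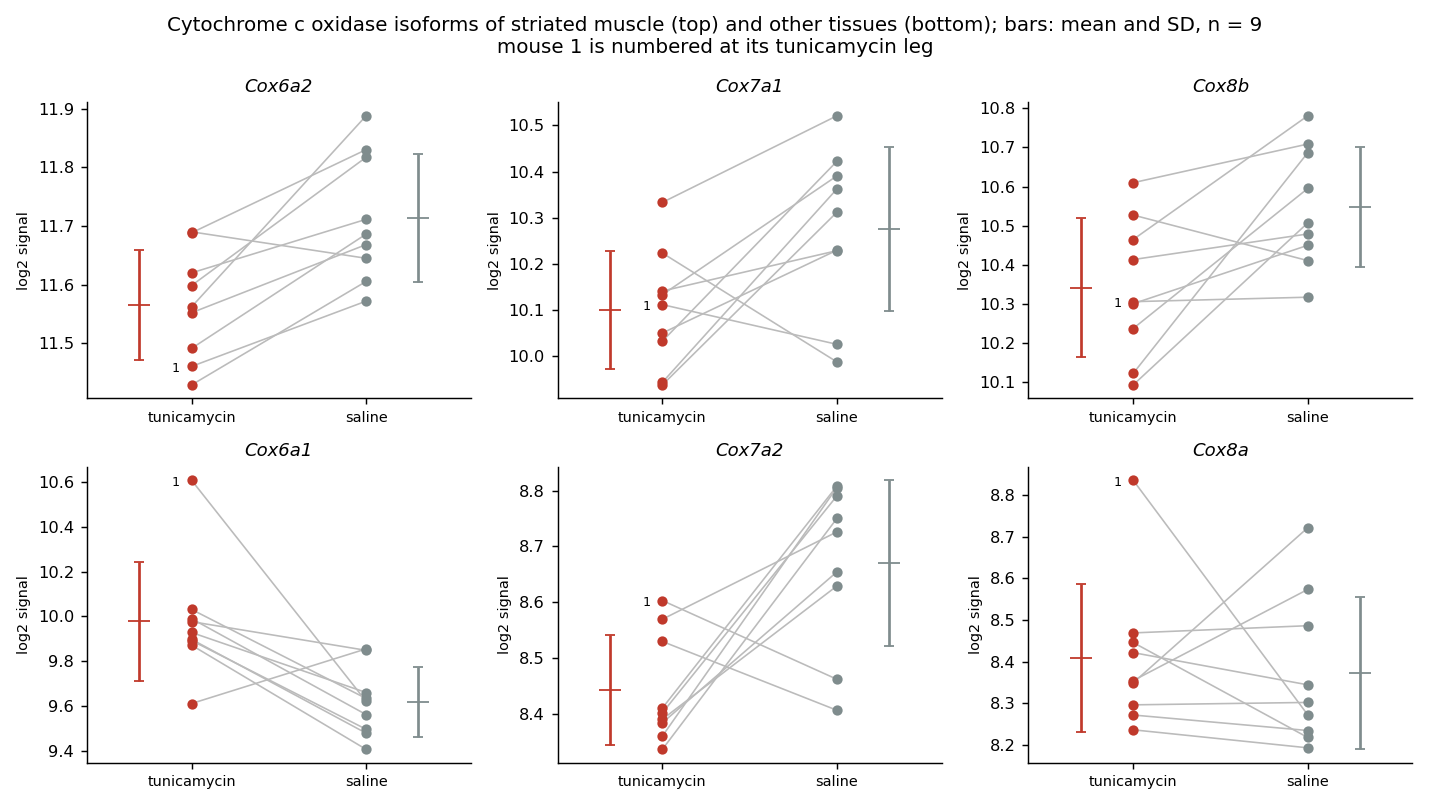
Log2 signal of the muscle isoforms of cytochrome c oxidase (top: Cox6a2, Cox7a1, Cox8b) and of the isoforms of other tissues (bottom: Cox6a1, Cox7a2, Cox8a) in the tunicamycin (left) and saline (right) leg of each mouse, with the mean and SD of 9 legs; mouse 1 is numbered. Lines of Cox6a1 go up toward tunicamycin in 8 of 9 mice, and mouse 1 holds the highest tunicamycin value of Cox6a1 (10.61) and of Cox8a (8.84).

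Complex V, the ATP synthase, had 2 falls and 1 rise, of a pseudogene, among 18 genes (16.7% called, against 10.9% of all genes). Its median was -0.11 (SD over mice 0.095). The c-ring, which turns as protons pass, is made from 3 genes that encode the same mature peptide, and only Atp5g3 of these fell. In mice 1 to 9 Atp5g3 had 8.81, 8.84, 8.83, 8.85, 8.76, 8.88, 8.90, 8.74 and 9.01 in tunicamycin legs, against 8.99, 9.09, 9.12, 8.97, 9.15, 9.17, 9.08, 8.76 and 9.13 in saline legs. It was lower after tunicamycin in 9 of 9 mice, by the least in mouse 8 (-0.21 ± 0.045, limma adjusted p = 0.0133).

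Atp5g2 changed by -0.09 ± 0.042 (adjusted p = 0.199) and Atp5g1 by 0.10 ± 0.068 (adjusted p = 0.372), higher in 7 of 9 mice. Differences between the c-ring genes were not tested. Atp5l, subunit g of the membrane part, fell, with 9.48 to 9.89 in tunicamycin legs (median 9.80), against 9.73 to 10.28 in saline legs (median 10.07; -0.24 ± 0.071, limma adjusted p = 0.0470). The 5 genes of the catalytic F1 head had a median of -0.09 and 0 passed, with Atp5d lowest (-0.14 ± 0.052, adjusted p = 0.106). The 4 genes of the peripheral stalk had a median of -0.12 and 0 passed, although Atp5j was lower in 9 of 9 mice (-0.12 ± 0.039, adjusted p = 0.0742). Atp5o, which joins the stalk to the head, changed by -0.21 ± 0.067 (adjusted p = 0.0610).

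Atp5c1-ps, a pseudogene of the γ subunit gene, rose at a low signal (3.14 ± 0.18 in tunicamycin legs and 2.92 ± 0.20 in saline legs, SD, n = 9 each; 0.22 ± 0.063, limma adjusted p = 0.0409). Its parent Atp5c1 changed by -0.07 ± 0.051 (adjusted p = 0.441). How far probes of a pseudogene also take up transcripts of the parent was not tested. The call was lost without mice 1 and 9 (adjusted p = 0.0860). Atp5e had 2 probesets of opposite sign (-0.21 and 0.02), and its mean is uncertain for that reason.

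Set against each other within mice, most complexes had no fixed order. The median of complex I was below that of complex V in 9 of 9 mice, by 0.03 on average (difference -0.03 ± 0.020, SD, n = 9), and that of complex III below complex V in 8 of 9 mice (-0.02 ± 0.037). For the other 8 pairs of complexes the order held in at most 7 of 9 mice. These medians describe lists and were not tested. All 5 medians kept their negative sign in every alternative in which they were computed. Mice differed more. The median over the 78 genes was -0.27 in mouse 3, -0.26 in mouse 6, -0.22 in mouse 5, -0.18 in mouse 7, -0.12 in mouse 4, -0.09 in mouse 2, -0.07 in mouse 9, -0.002 in mouse 1 and 0.06 in mouse 8. In mice 2 to 7 between 62 and 70 of the 78 genes were lower after tunicamycin, in mouse 9 57, in mouse 1 40 and in mouse 8 20, while 46.3% to 53.4% of all genes were lower in each of the 9 mice. In mouse 8 all 5 complexes had a positive median.

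**Figure D4:**
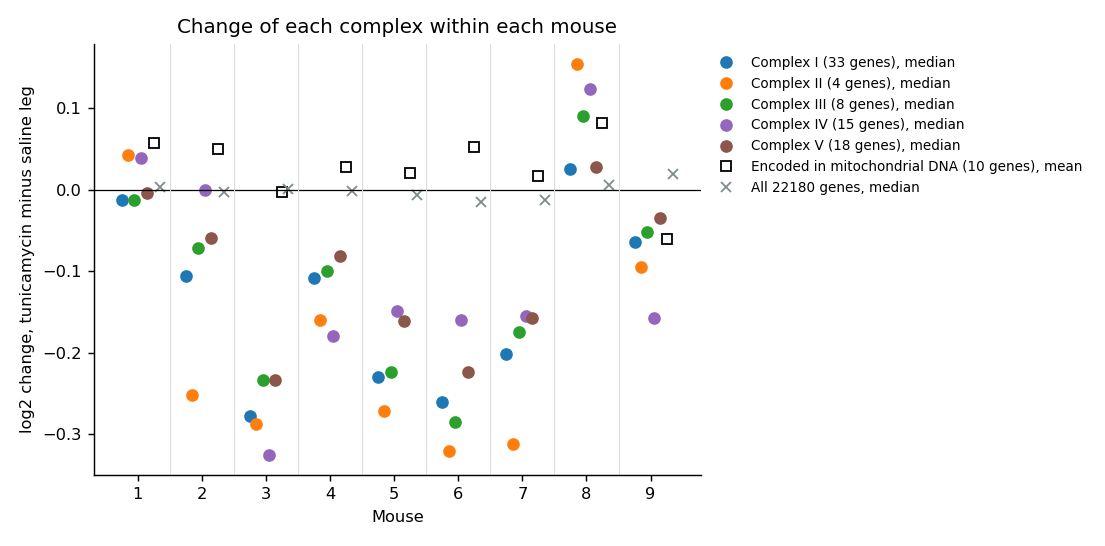
Change within each mouse (log2, tunicamycin minus saline leg): filled points give the median over the genes of complexes I to V, open squares the mean of 10 subunit genes of mitochondrial DNA, and crosses the median of all 22180 genes. In mouse 3 the complexes lie between -0.33 and -0.23, in mouse 8 between 0.03 and 0.15, and crosses stay within 0.02 of 0.

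The size of the ER stress response was not the same in each mouse either. Hspa5 changed by 0.58, 1.42, 2.05, 1.63, 1.47, 1.46, 1.32, 1.58 and 0.73 in mice 1 to 9. By Hspa5, mice 1 and 9 had the smallest responses, and mouse 8, whose subunit genes were on the whole higher in the tunicamycin leg, had the third largest. Ddit3 also changed least in mice 1 (0.50) and 9 (0.67), and it changed most in mouse 8 (1.68).

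Subunits encoded in mitochondrial DNA changed little. Of the 10 measured, 0 rose and 0 fell, 9 had a positive change, and the median was 0.03, from -0.04 (ND6) to 0.05 (ND2). ND6 averaged 10.51 in tunicamycin legs and 10.56 in saline legs. Signals of the other genes, 12.34 to 12.97, lay at the top of the range of the arrays, where changes may be seen less well. The difference between the mitochondrially encoded and the nuclear genes was not tested.

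The nuclear regulators of these genes were described by a list of 17, with a median of -0.09, of which 3 fell and 1 rose. These calls are to be read against the 10.9% of all genes called. Ppargc1a, the coactivator PGC-1α, spanned 6.85 to 7.76 in tunicamycin legs (median 7.33), against 7.63 to 8.26 in saline legs (median 7.81). It was lower in 9 of 9 mice, with 8 tunicamycin arrays below every saline array, and fell to 0.704 times the saline level (-0.51 ± 0.082, limma adjusted p = 0.00306). Tfam, which packs and transcribes mitochondrial DNA (-0.16 ± 0.046, adjusted p = 0.0402), and the corepressor Nrip1 (-0.16 ± 0.047, adjusted p = 0.0471) fell as well. Pprc1, a PGC-1 relative, rose in 9 of 9 mice (0.16 ± 0.039, adjusted p = 0.0196). Without mice 1 and 9 the calls of Ppargc1a and Pprc1 were kept, and those of Tfam (adjusted p = 0.0676) and Nrip1 (adjusted p = 0.0858) were lost. In that fit 1 of the 17 fell and 1 rose (11.8% called), which is no excess over the 14.5% of all genes called. Esrra changed by -0.08 ± 0.061 (adjusted p = 0.460), Nrf1 by -0.09 ± 0.045 (adjusted p = 0.223) and Gabpa by -0.07 ± 0.040 (adjusted p = 0.265).

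Genes that build the complexes were also lower on the whole. Among 43 assembly factors 9 fell and 1 rose, and 41 had a negative change (median -0.09). The complex I factors Ndufaf5 (-0.35 ± 0.065, limma adjusted p = 0.00646), Ndufaf1 (-0.21 ± 0.044, adjusted p = 0.0112) and Ndufaf6 (-0.26 ± 0.059, adjusted p = 0.0169) were lower in 9 of 9 mice. The exception was Sco1, a copper chaperone of complex IV (0.21 ± 0.061, adjusted p = 0.0430). Of 12 genes of coenzyme Q synthesis 4 fell, with Coq7 (-0.25 ± 0.057, adjusted p = 0.0166) and Coq10a (-0.20 ± 0.053, adjusted p = 0.0276) among them, and 1 rose, the ADCK kinase gene Coq8b (0.27 ± 0.056, adjusted p = 0.0110). Each count is to be read against the 10.9% of all genes called (14.5% without mice 1 and 9). Without mice 1 and 9, 10 assembly factors fell and 1 rose, and 5 coenzyme Q genes fell and 1 rose.

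A list of 11 subunits and carriers that the symbol rule missed had 1 fall and 1 rise and a median of -0.12. Etfb, a subunit of the flavoprotein that brings electrons from fatty acid oxidation, fell (-0.28 ± 0.081, limma adjusted p = 0.0448), while Cyc1, cytochrome c1 (-0.25 ± 0.077, adjusted p = 0.0518), and Cox4i1 (-0.19 ± 0.065, adjusted p = 0.0722) did not pass. Slc25a5, an ADP/ATP carrier, rose (0.32 ± 0.057, adjusted p = 0.00486), with 8 tunicamycin arrays above every saline array. The carrier isoform of heart and skeletal muscle, Slc25a4, changed by -0.08 ± 0.038 (adjusted p = 0.204). The difference between the carriers was not tested. With mice 1 and 9 left out, 4 of the 11 fell (36.4%, against 7.42% of all genes) and 1 rose. Both counts of calls are to be read against the 10.9% of all genes called with all mice and the 14.5% called without mice 1 and 9.

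Pathways that feed electrons to the chain were also lower on the whole. Of 12 TCA cycle genes, 2 fell (Idh3a, -0.18 ± 0.046, limma adjusted p = 0.0276, and Dld, -0.14 ± 0.042, adjusted p = 0.0468), 0 rose and 12 had a negative change (median -0.10). Of 14 genes of fatty acid oxidation, 3 fell, 0 rose and 14 had a negative change (median -0.23). Eci2 (-0.27 ± 0.056, adjusted p = 0.0105), Echs1 (-0.32 ± 0.071, adjusted p = 0.0136) and Hadh (-0.24 ± 0.063, adjusted p = 0.0296) were the falls. Leaving out mice 1 and 9, 5 TCA cycle genes and 9 fatty acid oxidation genes fell and 0 rose. Of all genes, 6.15% fell with all mice and 7.42% without mice 1 and 9. Differences between these lists and the subunit genes were not tested. In mouse 8 the mean change of the fatty acid oxidation list was 0.18 and in mouse 1 0.13, against -0.52 in mouse 6.

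Markers of other cells moved in the same samples, and their part in the results was not tested. Of 10 macrophage markers 3 rose (Adgre1, Cd68 and Fcgr1), 0 fell and 3 had a negative change, the lowest -0.12. List means were 6.27 to 7.06 in tunicamycin arrays and 6.01 to 6.68 in saline arrays. The mean change of the list was 0.34 to 0.72 in mice 2 to 8, -0.05 in mouse 1 and -0.33 in mouse 9. Cox6a1 was lower after tunicamycin in mouse 9 alone, but it rose most in mouse 1, by 0.99. Of 6 neutrophil markers 3 rose (S100a8, Mmp9 and Csf3r), 0 fell and 1 had a negative change (-0.09). List means were 4.84 to 5.81 in tunicamycin arrays and 4.60 to 5.14 in saline arrays. Of 6 smooth muscle and pericyte markers 3 fell (Rgs5, Myh11 and Tagln, -0.27 to -0.26), while Acta2 changed by 0.05, Cnn1 by 0.001 and Pdgfrb by -0.09. Without mice 1 and 9, 6 macrophage and 5 neutrophil markers rose and the same count of smooth muscle markers, 3, fell. In that fit the macrophage markers Csf1r (-0.08), C1qa (-0.13) and C1qc (-0.04) and the neutrophil marker Ly6g (-0.16) had a negative change. Marker counts are to be read against the 10.9% of all genes called with all mice and the 14.5% called without mice 1 and 9.

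RNA of fibre type markers also varied between legs, and fibre composition itself was not measured. The mean change of 8 slow fibre markers was -1.87 in mouse 2, -0.81 in mouse 1 and -0.68 in mouse 7, but 0.51 in mouse 6 and 0.59 in mouse 8, and 0 passed the threshold. The mean of 8 fast fibre markers stayed within -0.20 to 0.12, and 0 passed, but single genes moved more: Myh2, a myosin of oxidative fast fibres, changed by -0.59 in mouse 6, -0.53 in mouse 2 and 0.85 in mouse 8, and Myh1 by -0.70 in mouse 6 and 0.55 in mouse 8. The 4 brown adipocyte genes, which include Cox8b, changed by 2.88 on average in mouse 1, the mouse with the highest tunicamycin values of Cox6a1 and Cox8a, and by -0.19 to 0.07 in mice 2 to 9. General adipocyte markers were also higher in the tunicamycin leg of mouse 1, Plin1 by 2.10, Lep by 1.93 and Adipoq by 1.45. The mean of the 6 adipocyte markers changed by 1.81 in mouse 1, but by -1.30 in mouse 3, -0.88 in mouse 4 and -0.83 in mouse 8, and 0 passed with all mice. Lep and Retn, 2 of the 6, fell once mice 1 and 9 were left out. Of 8 skeletal muscle genes 0 passed, with a mean change of -0.04 ± 0.072 (SD, n = 9).

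**Figure D5:**
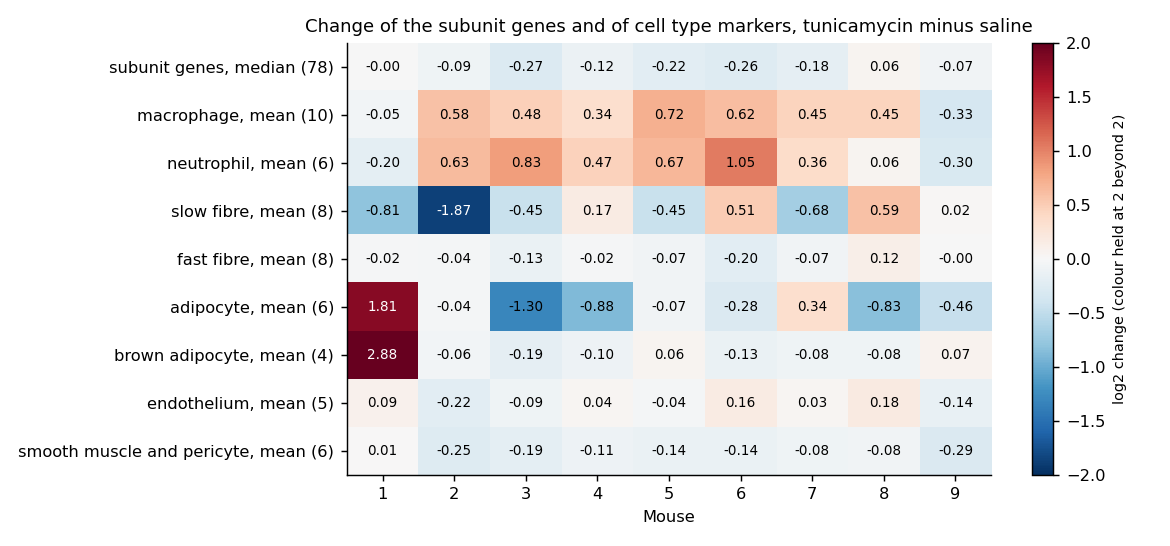
Change within each mouse (log2, tunicamycin minus saline leg) of the median subunit gene and of the mean of 8 marker lists, with the number of genes in parentheses and colour held at 2 beyond that value. Macrophage markers are higher after tunicamycin in 7 of 9 mice and lower in mice 1 and 9, and brown adipocyte markers stand out at 2.88 in mouse 1 alone.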

How the data were processed

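Per the methods, the authors ran RMA in Partek on the scanned arrays and deposited log2 signals, after background correction, quantile normalization and median polish. Each probeset of the MoGene-2_0-st Affymetrix arrays has 1 value. The genome build of the arrays' annotation is not given in the sources used here. All 18 columns were matched to a sample, and groups and mouse numbers came from the labels.

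Of 41345 probesets, 23521 carried 1 gene symbol in the platform annotation, 1820 several and 16004 none. Averaging over probesets of the same single symbol gave 22180 genes (1082 from more than 1 probeset). No filter on low signal was used. With a filter at the median of all gene means, tried as an alternative, 69 of the 78 subunit genes stayed. Precision is limited by how many arrays there are.

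The test was lmFit and eBayes of limma 3.58.1 (R 4.3.3), two-sided and with the mouse as a block, with Benjamini-Hochberg adjustment over all 22180 genes and a threshold of 0.05. The study's methods state no mouse term. Each pair comes from the same animal per the labels. Deviations from the group means correlated within mice with a median r of 0.12 (-0.039 to 0.35), against -0.013 between mice. The scripts were tested on simulated data. Isoform pairs were tested by exact sign flips over 9 mice (512 patterns, smallest p 0.00391). Symbols and promoters came from RefSeq, assembly GRCm38.p6.

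The subunit genes and all lists were chosen with earlier results of these data known. Named genes were those past the threshold, the 3 smallest p and the largest rise in each complex, the complex II genes, the isoform pairs, Ndufa4, Ndufa4l2, the c-ring genes and up to 3 called genes a list; Ndufs1, Uqcrfs1, Atp5o, Esrra, Nrf1, Gabpa, Myh1, Myh2, Cyc1, Cox4i1, Slc25a4, Sco1, Atp5d, Atp5j, Atp5c1, Atp5e, the complex IV testis isoforms and the fat, smooth muscle and brown fat genes were added after their values were seen. Alternatives were no block, renewed quantile normalization, centring on array medians, array weights, a filter on dim genes, a prior that was trended and robust, the brightest probeset, single probesets, leaving out each mouse, and, chosen after seeing the data, leaving out mice 1 and 9.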

Additional observations from a re-analysis of the deposited data

Results flagged for a closer look

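In 5 of 68 groups of 9 legs examined, 1 value lay farther from its neighbour than Dixon's test allows, and chance alone flags about 1 group in 20. The tunicamycin leg of mouse 1 was highest for Cox6a1 (10.61, next value 10.03) and for Cox8a (8.837, next value 8.469). The tunicamycin leg of mouse 3 was lowest for Atp5l (9.483, next value 9.751). The saline leg of mouse 8 was lowest for Sdhd (8.551, next value 8.874) and for Atp5g3 (8.76, next value 8.971), and mouse 8 was the mouse in which most subunit genes were higher in the tunicamycin leg.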

How the results depend on the processing

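Medians of the 5 complexes were negative and within the spread over mice in each alternative in which they were computed. The count of subunit genes that fell, 15, was 25 with array weights, 24 with centring and 27 with the filter on dim genes. It was 27 with the trended and robust prior and 8 after renewed quantile normalization. Falls over all genes, 1363 in the main fit, were 1712, 1785, 1856, 1680 and 1083 in the same order. The 1856 are among the genes that the filter kept. Falls were 69% of all calls with centring and 49.4% after renewed quantile normalization, against 56.6% in the main fit. All 17 calls were shared with array weights, centring and the trended prior, and 10 were kept after renewed quantile normalization. Without a mouse the falls ran from 3 to 25, the rises from 0 to 3 (2 with all mice), and the calls over all genes from 1304 to 2787 (2410 with all mice). Rises came to 1 with the filter.

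Without the replicate block, 14 fell and 1 rose, 13 of the 17 calls were kept, and 1859 genes were called.

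Cox7a1 minus Cox7a2 lost its call after renewed quantile normalization (0.01388), and ran from 0.04184 to 0.06628 without a mouse. Cox8b minus Cox8a ran from -0.2895 to -0.2023. Cox8a, not called, turned to -0.001389 without mice 1 and 9 and ran from -0.02865 (without mouse 1) to 0.08862 without a mouse. Ndufs5, not called, ran from -0.0236 (without mouse 8) to 0.05894, with -0.001767 without mouse 3. The cause of these shifts was not tested. Dim genes, such as both pseudogenes, have changes that arrays measure less well.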

Other observations

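Probesets that the annotation gives to a subunit gene together with another gene were left out of the tests, and their values are given here. All 10 had a lower mean in tunicamycin legs. The probeset of Ndufb2 and Adck2 averaged 7.08 ± 0.15 in tunicamycin legs and 7.25 ± 0.090 in saline legs (SD, n = 9 each) and was lower after tunicamycin in 9 of 9 mice. A probeset of Ndufs1 and Ino80dos, at 4.75 ± 0.16 in tunicamycin legs and 4.93 ± 0.10 in saline legs, was likewise lower in 9 of 9 mice. The probeset of Uqcr10 and Gm6293 averaged 7.31 ± 0.10 in tunicamycin legs and 7.49 ± 0.11 in saline legs and was lower in 7 of 9 mice. The probeset of Ndufs5 and Ndufs5-ps changed by -0.19 ± 0.19 (SD) and was lower in 7 of 9 mice. The brighter of 2 probesets of Cox6c and Gm6265 changed by -0.12 ± 0.15 (SD), the dimmer by -0.07 ± 0.15 (SD), and that of Ndufb4 with its copies by -0.10 ± 0.14 (SD). Of the 2 probesets of Ndufs6 and Ndufs6b, the brighter changed by -0.10 ± 0.13 (SD) and was lower in 8 of 9 mice. The dimmer changed by -0.05 ± 0.17 (SD) and was lower in only 4 of 9 mice.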
